A study of Rattus norvegicus with 4 samples.

Results

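Genes whose symbols mark them as splicing factors or nuclear RNA-binding proteins were examined in liver RNA of rats kept under forced activity, with or without sleep restriction. Members were all rows of the deposited gene count table whose symbol starts with Srsf, Hnrnp, Snrp, Sf3a, Sf3b or Prpf, which gave 65 of 32545 rows. They comprise 11 Srsf, 20 Hnrnp, 12 Snrp, 3 Sf3a, 6 Sf3b and 13 Prpf rows and 63 different symbols, of which 62 are current symbols in RefSeq (assembly GRCr8). The control group of 2 libraries came from rats made to stay active, and the treated group of 2 libraries came from rats made to stay active and also restricted in sleep. Forced activity is thus shared by both groups, and no group without it is analysed here. Strain, sex, age, the length of the treatment and whether each library is a separate animal are not given in the sources used here, so p-values measure the spread between these libraries, which may be technical.

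Introns are removed from nuclear transcripts by the spliceosome, which assembles on each intron from small nuclear ribonucleoprotein particles. Snrp genes encode protein parts of these particles, among them the Sm ring that surrounds the small nuclear RNAs. Sf3a and Sf3b genes encode the complexes that help one particle bind the branch point, and Prpf genes encode pre-mRNA processing factors of the catalytic core and its assembly. Srsf genes encode SR proteins, which bind exons and promote their use, and Hnrnp genes encode abundant nuclear proteins that package transcripts and often oppose SR proteins. Many SR protein and hnRNP genes control their own level through alternative exons that send the transcript to decay, which gene-level counts cannot show.

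The libraries had totals of 508202.6 to 520275.6 counts, and Alb, a hepatocyte gene, took 11.6% to 13.6% of them. Near-equal totals do not mean equal depth. The replicate 1 libraries listed 14008 and 14105 genes above 0, against 11943 in forced activity 2 and 10952 in sleep restriction 2, and values come in steps of 0.1 in all libraries except sleep restriction 2, where only 1 value is not whole. The number of genes above 0 thus differs by replicate number, and the depth behind each library is not measured by the table. The 8 hepatocyte markers were all above 0, with a summed level of 201331 to 213390 CPM (TMM-scaled counts per 1e6 counts). In the order forced activity 1, forced activity 2, sleep restriction 1 and sleep restriction 2, summed levels were 210, 523, 515 and 277 CPM for 8 endothelial markers, 328, 456, 576 and 383 CPM for 7 macrophage markers, and 479, 1053, 631 and 435 CPM for 5 red cell markers. Lymphocyte markers, 8 in all with Igkc and Ighm among them, summed to 206 and 208 CPM under forced activity and 75.9 and 97.7 CPM under sleep restriction. The 6 stellate, 5 cholangiocyte and 5 proliferating cell markers summed to 511 to 682, 24.4 to 37.1 and 21.4 to 30.5 CPM, and no marker row was at 0 in every library.

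Of the 65 members, 37 had enough counts to be tested: 7 Srsf, 12 Hnrnp, 4 Snrp, 1 Sf3a, 4 Sf3b and 9 Prpf genes. None was called between sleep restriction and forced activity at an adjusted p under 0.05 in edgeR's quasi-likelihood test. Over all 4986 genes tested, 1 gene (0.0201%) was called. No member had an unadjusted p under 0.05 in edgeR, DESeq2 or limma-voom with all 4 libraries, where edgeR found 4.21% of all genes there. The smallest unadjusted p of a member was 0.0569 in edgeR, for Hnrnpul2 (adjusted p 0.999). Both sleep restriction libraries lay above both forced activity libraries for 6 members and below both for 6 members, together 32.4% of those tested, and over all genes the shares were 17.2% and 15.3%. The members' share is close to the share over all genes. Log2 changes were positive in 19 members and negative in 18, with a median of 0.0032, and the median over all genes was 0.0034. The 4 libraries can be split into pairs in only 3 ways, so an exact permutation test of a single gene cannot reach 0.05.

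More members separated by replicate number than by group. Both replicate 2 libraries exceeded both replicate 1 libraries for 18 of 37 members (48.6%), against 21.8% of all genes tested, and the opposite order held for 2 members, Prpf6 and Snrpb, against 21.4% of all genes. The median member was 0.26 higher on the log2 scale in forced activity 2 than in forced activity 1, and 0.22 higher in sleep restriction 2 than in sleep restriction 1, where the medians over all genes were -0.0060 and -0.00032. Counts of all 65 rows made up 0.236% and 0.249% of the replicate 1 libraries (forced activity, then sleep restriction) and 0.320% and 0.301% of the replicate 2 libraries. These replicate differences are descriptions without a test. The number of genes above 0 moved with them, being lower in replicate 2, and its part was not tested. The cell type marker sums given above also differed between libraries, not all in the same order, and their part was not tested. In liver tissue, fewer cells of a type and less RNA per cell cannot be told apart.

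**Figure D1:**
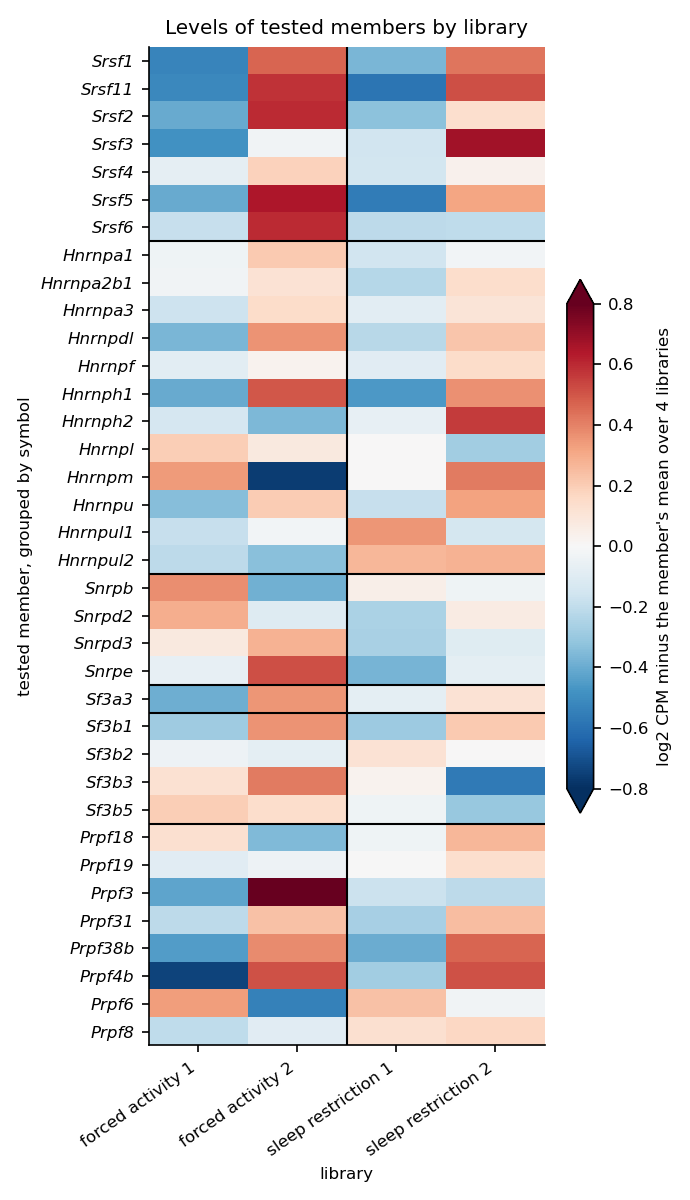
Level of 36 of the 37 tested members in the 4 libraries, as log2 CPM minus that member's mean over the libraries, with colours limited to 0.8 in either direction. Rows are grouped by symbol, and most Srsf rows are red in both replicate 2 columns and blue in both replicate 1 columns.

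Among the 6 symbol groups, the SR protein genes had the largest median replicate differences. Of 7 tested Srsf members, 6 were higher in both replicate 2 libraries than in both replicate 1 libraries, with median log2 differences of 0.94 within forced activity and 0.74 within sleep restriction. Summed over all 11 Srsf rows, counts went from 234.7 in replicate 1 to 432 in replicate 2 of forced activity, and from 248.2 to 361 in those of sleep restriction. Between the groups the median log2 change of the 7 members was -0.11, which was -0.01 within the replicate 1 libraries and -0.15 within the replicate 2 libraries.

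Srsf1 (rn6 chromosome 10, 75335146 to 75341197), the founding SR protein that acts in splice site choice, measured 90.3 CPM in replicate 1 and 180 CPM in replicate 2 of forced activity, against 101 and 175 CPM in those of sleep restriction. Values below follow this order. The replicate 2 value was 1.99 times the replicate 1 value under forced activity and 1.74 times under sleep restriction. Its levels overlapped between the groups, with a log2 change of 0.03 (SE 0.34, adjusted p 0.999 in edgeR). Srsf11 (chromosome 2, 264837472 to 264864265), an SR-related protein, measured 33.9 and 72.4 CPM under forced activity and 32.4 and 69.2 CPM under sleep restriction. Its 2 replicate ratios were both 2.14, and its log2 change between groups was -0.07. Srsf5 (chromosome 6, 104611026 to 104615302) measured 52.1 and 108 CPM under forced activity and 46.6 and 85.5 CPM under sleep restriction, with replicate ratios of 2.07 and 1.83. In these 3 genes the replicate 1 libraries of the groups sat together, and so did the replicate 2 libraries. Srsf11 and Srsf5 were picked for description with their values known.

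Srsf2, a nuclear SR protein that stays in speckles, measured 85.4 and 171 CPM under forced activity and 90.2 and 124 CPM under sleep restriction. Its log2 change was -0.26 (SE 0.32), with the sign differing between replicate numbers, at 0.08 and -0.45. Srsf4 varied less, at 102 and 122 CPM under forced activity and 96.7 and 110 CPM under sleep restriction, and its groups overlapped (log2 change -0.11). Srsf6 was high in 1 library, with 64.0 and 110 CPM under forced activity and 62.7 and 63.1 CPM under sleep restriction. It was the only tested Srsf gene with groups that did not overlap, and its log2 change of -0.44 (SE 0.27) was -0.02 without forced activity 2. Srsf3, the smallest SR protein, was the one Srsf gene with a log2 change above 0.1. It measured 30.1 and 41.3 CPM under forced activity and 37.9 and 67.2 CPM under sleep restriction, giving a log2 change of 0.53 (SE 0.31, adjusted p 0.999 in edgeR). Its groups overlapped, and the change was 0.34 within replicate 1, 0.66 within replicate 2 and 0.10 without sleep restriction 2.

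**Figure D2:**
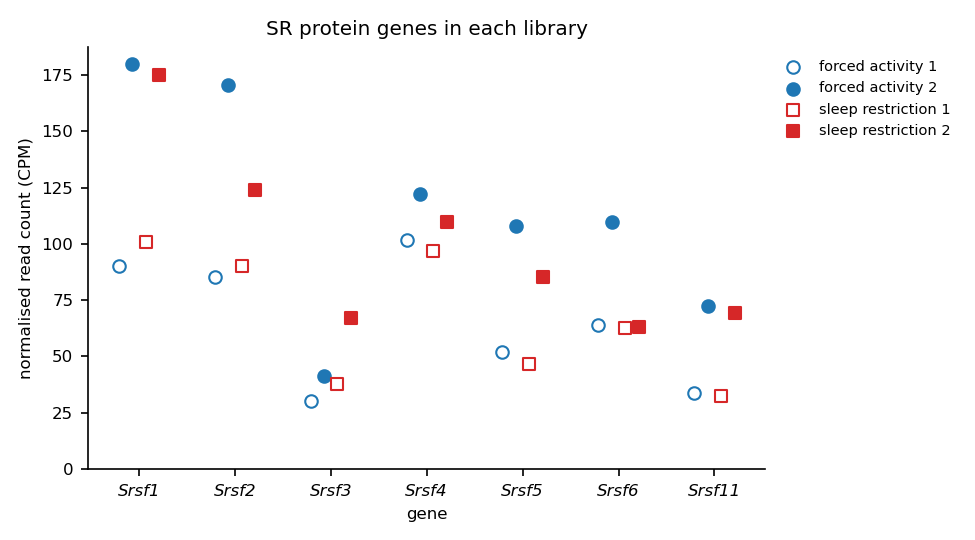
Normalised read count (CPM) of the 7 tested Srsf genes in each library, with circles for forced activity, squares for sleep restriction, open symbols for replicate 1 and filled symbols for replicate 2. Filled symbols lie above open ones for 6 genes, while Srsf6 is high in forced activity 2 alone.

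The 250 bases before the RefSeq start of Srsf1, Srsf5, Srsf11, Prpf38b and Srsf4 are shown (GRCr8). Each is read 5′ to 3′ on its own strand and is not comparable in position with the rn6 intervals of the count table. These genes were picked with their values known. All shared this replicate order, Srsf4 with smaller replicate ratios of 1.20 under forced activity and 1.14 under sleep restriction. Any link between these sequences and the replicate order was not tested. Capitals mark CCAAT and TGACGT, the core letters of the CCAAT box and of the cyclic AMP response element, on either strand (ATTGG and ACGTCA in reverse).
Srsf1 (chr10:73336248-73336497, plus strand): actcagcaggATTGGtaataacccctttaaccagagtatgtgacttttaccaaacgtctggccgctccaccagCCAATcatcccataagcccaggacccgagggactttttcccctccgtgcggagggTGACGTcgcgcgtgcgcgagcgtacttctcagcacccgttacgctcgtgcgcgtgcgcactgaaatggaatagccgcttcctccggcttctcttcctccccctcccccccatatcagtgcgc
Srsf5 (chr6:106336506-106336755, plus strand): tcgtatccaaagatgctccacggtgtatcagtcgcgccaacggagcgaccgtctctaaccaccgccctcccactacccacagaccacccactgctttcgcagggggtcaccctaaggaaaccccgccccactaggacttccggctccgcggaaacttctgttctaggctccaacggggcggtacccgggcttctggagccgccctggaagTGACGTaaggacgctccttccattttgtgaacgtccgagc
Srsf11 (chr2:249760259-249760508, minus strand): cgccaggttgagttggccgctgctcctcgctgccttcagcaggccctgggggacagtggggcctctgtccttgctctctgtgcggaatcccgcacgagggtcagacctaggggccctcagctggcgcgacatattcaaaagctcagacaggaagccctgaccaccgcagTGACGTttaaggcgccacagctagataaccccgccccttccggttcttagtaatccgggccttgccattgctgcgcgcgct
Prpf38b (chr2:199250339-199250588, minus strand): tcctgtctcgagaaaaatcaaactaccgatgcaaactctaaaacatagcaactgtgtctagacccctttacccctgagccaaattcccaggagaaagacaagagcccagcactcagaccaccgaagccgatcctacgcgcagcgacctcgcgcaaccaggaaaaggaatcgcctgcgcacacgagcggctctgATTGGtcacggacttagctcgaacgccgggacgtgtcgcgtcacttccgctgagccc
Srsf4 (chr5:149345288-149345537, plus strand): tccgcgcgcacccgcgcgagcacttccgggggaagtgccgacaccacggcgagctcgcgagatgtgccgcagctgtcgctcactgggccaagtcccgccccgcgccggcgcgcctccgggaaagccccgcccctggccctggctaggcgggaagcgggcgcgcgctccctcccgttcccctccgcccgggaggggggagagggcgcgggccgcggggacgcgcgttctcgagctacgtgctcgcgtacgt
TGACGT was found in the windows of Srsf1, Srsf5 and Srsf11 and not in those of Prpf38b and Srsf4. CCAAT was found at 2 places in the Srsf1 window and at 1 place in the Prpf38b window. Of 33469 promoters of this length, 6.95% hold TGACGT and 34.0% hold CCAAT, and of the 35 tested members with an entry 9 (25.7%) and 20 (57.1%) do. The 33469 promoters were not limited to genes with enough counts to be tested, nor to a single entry per symbol, as the members were. The shares therefore do not compare the members with other genes expressed in these libraries. Motifs were counted separately on both strands, so matches of different motifs may overlap. Of the other motifs searched, some were more frequent among the members: CCGGAA, the core of the ETS factor site, in 48.6% against 12.6%, GGGCGG, the GC box, in 51.4% against 30.5%, and CACGTG, the E-box, in 14.3% against 5.59%. TATAAA, the TATA box, was in 8.57% against 12.9%. The members' windows were richer in G and C, with a median of 58.4% against 51.2%, which bears on each motif share. These are matches of letters and were compared without a test.

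Hnrnp genes were spread around 0 between the groups. The fitted change was above 0 in 7 and below 0 in 5 of the 12 tested, its median was 0.03, and 7 of the 12 were higher in both replicate 2 libraries than in both replicate 1 libraries. Hnrnpu, a large nuclear protein that binds RNA and chromatin, measured 152 and 221 CPM under forced activity and 169 and 240 CPM under sleep restriction, with replicate ratios of 1.46 and 1.42. Its log2 change between groups was 0.12 (SE 0.25). Hnrnph1, chosen after its values were seen, measured 66.8 and 125 CPM, then 64.3 and 114 CPM, with replicate ratios of 1.87 and 1.77. Hnrnpa2b1, a core packaging protein, was steadier at 152 and 168 CPM under forced activity and 133 and 171 CPM under sleep restriction (log2 change -0.08). In each of these 3 genes the groups overlapped.

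Hnrnpul2, a relative of Hnrnpu, had the smallest unadjusted p of all members. It measured 46.4 and 42.5 CPM under forced activity and 64.3 and 65.1 CPM under sleep restriction. The means were 44.4 ± 2.80 and 64.7 ± 0.564 CPM (SD, 2 libraries each). These values rest on 21.9 and 21.8 counts, then 31.6 and 32 counts, and an SD of 2 values is itself uncertain. The groups did not overlap, and the log2 change of 0.51 (SE 0.24) was 0.45 within replicate 1 and 0.56 within replicate 2, but did not pass the test (adjusted p 0.999 in edgeR). Leaving out 1 library gave 0.44 to 0.56, but the gene was named for its small p in these same libraries. Hnrnph2 measured 36.4 and 31.2 CPM under forced activity and 38.3 and 59.0 CPM under sleep restriction, giving a log2 change of 0.49 (SE 0.28) that was 0.09 within replicate 1, 0.84 within replicate 2 and 0.18 without sleep restriction 2. Hnrnpl, which binds CA-rich RNA, measured lower under sleep restriction, with 129 and 106 CPM against 147 and 135 CPM under forced activity. Its groups did not overlap, and its log2 change was -0.25 (SE 0.21, adjusted p 0.999 in edgeR), or -0.13 without sleep restriction 2. Genes such as Hnrnpa1 and Hnrnpa3 have processed copies that can share their reads, so their counts are uncertain. The table itself lists Hnrnpa3 on 2 rows, 1 of which is at 0 in every library.

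Only 4 of 12 Snrp genes were tested, and 3 of them had a negative log2 change. Their median log2 change was -0.26, or -0.30 within replicate 1 and -0.10 within replicate 2, and none passed the test. Snrpd3, an Sm ring protein, measured 41.3 and 47.5 CPM under forced activity and 32.8 and 36.6 CPM under sleep restriction, giving a log2 change of -0.33 (SE 0.25) that was -0.34 and -0.32 within the replicate numbers. Its groups did not overlap. Snrpd2, another Sm protein, measured 49.8 and 38.0 CPM, then 34.2 and 42.7 CPM, so its groups overlapped (log2 change -0.19, or -0.0084 without forced activity 1). Snrpb, the Sm B protein, measured 43.2 and 25.5 CPM, then 34.4 and 32.6 CPM, with a log2 change of 0.0033 whose sign turned under 7 of 10 alternatives that kept all libraries. Snrpe measured 26.7 and 39.9 CPM, then 21.6 and 26.5 CPM, a log2 change of -0.40 (SE 0.28) with groups that did not overlap. Without forced activity 2 the change was -0.16. Its row spans only 418 bases (rn6 chromosome 8, 129371556 to 129371973), and RefSeq lists Snrpe as an older name of the pseudogene Snrpel1 beside the protein-coding Snrpe. Whether this row counts that copy was not tested.

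Sf3a3 was the single Sf3a gene tested, at 17.2 and 28.8 CPM under forced activity and 21.4 and 24.4 CPM under sleep restriction (log2 change -0.05). The 4 tested Sf3b genes had a median log2 change of -0.21, and none passed the test. Sf3b1, the large scaffold of the branch point complex, measured 115 and 181 CPM, then 115 and 163 CPM. Its replicate ratios were 1.56 and 1.42 against a log2 change between groups of -0.10 (SE 0.27). Sf3b3 measured 55.7 and 68.2 CPM under forced activity and 52.3 and 34.6 CPM under sleep restriction, giving a log2 change of -0.46 (SE 0.27) that rested on the replicate 2 libraries, at -0.90 against -0.05 in replicate 1, and was -0.22 without sleep restriction 2. Sf3b5, a small subunit, measured 31.6 and 30.4 CPM, then 26.9 and 22.4 CPM (log2 change -0.32, SE 0.27). Sf3b2 ran the other way, at 61.2 and 59.6 CPM, then 68.2 and 63.1 CPM, a log2 change of 0.11 (SE 0.23) that was 0.04 without sleep restriction 1. Groups did not overlap for Sf3b2, Sf3b3 and Sf3b5, 75% of the 4 tested, against 32.5% of all genes tested. The nearest libraries of the groups lay close, at 61.2 and 63.1 CPM for Sf3b2 and at 55.7 and 52.3 CPM for Sf3b3.

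Prpf genes had mostly positive fitted changes, some of them close to 0. The fitted change was above 0 in 8 of 9 tested genes, against 52.5% of all genes, and was as small as 0.0032 in Prpf31. Its median of 0.13 was 0.08 within replicate 1 and 0.16 within replicate 2. Only 5 of the 9 had the same sign within both replicate numbers, where 56.3% of all genes did. No member passed the test. Prpf8, the largest protein at the catalytic centre of the spliceosome, measured 134 and 145 CPM under forced activity and 168 and 173 CPM under sleep restriction. Its mean went from 139 ± 7.46 to 171 ± 3.28 CPM (SD, 2 libraries each), on 63.3 and 74.3 counts, then 82.7 and 85 counts. Its groups did not overlap. The log2 change was 0.29 (SE 0.20, adjusted p 0.999 in edgeR), or 0.33 and 0.26 within the replicate numbers. Prpf19, a ubiquitin ligase of the spliceosome, measured 103 and 107 CPM, then 109 and 120 CPM, also without overlap and with a log2 change of 0.12, or 0.05 without sleep restriction 2.

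Other Prpf genes varied with the replicate number or in a single library. Prpf4b, a kinase that acts on splicing factors, measured 38.6 and 91.5 CPM under forced activity and 53.1 and 91.6 CPM under sleep restriction, with replicate ratios of 2.37 and 1.72. Prpf38b, chosen after its values were seen, measured 40.1 and 70.9 CPM, then 41.3 and 75.3 CPM, with ratios of 1.77 and 1.82. Prpf3 was high in forced activity 2 alone, at 45.2 CPM against 19.3, 23.0 and 22.4 CPM in forced activity 1 and sleep restriction 1 and 2. Its log2 change of -0.47 (SE 0.36) became 0.19 without that library.

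**Figure D3:**
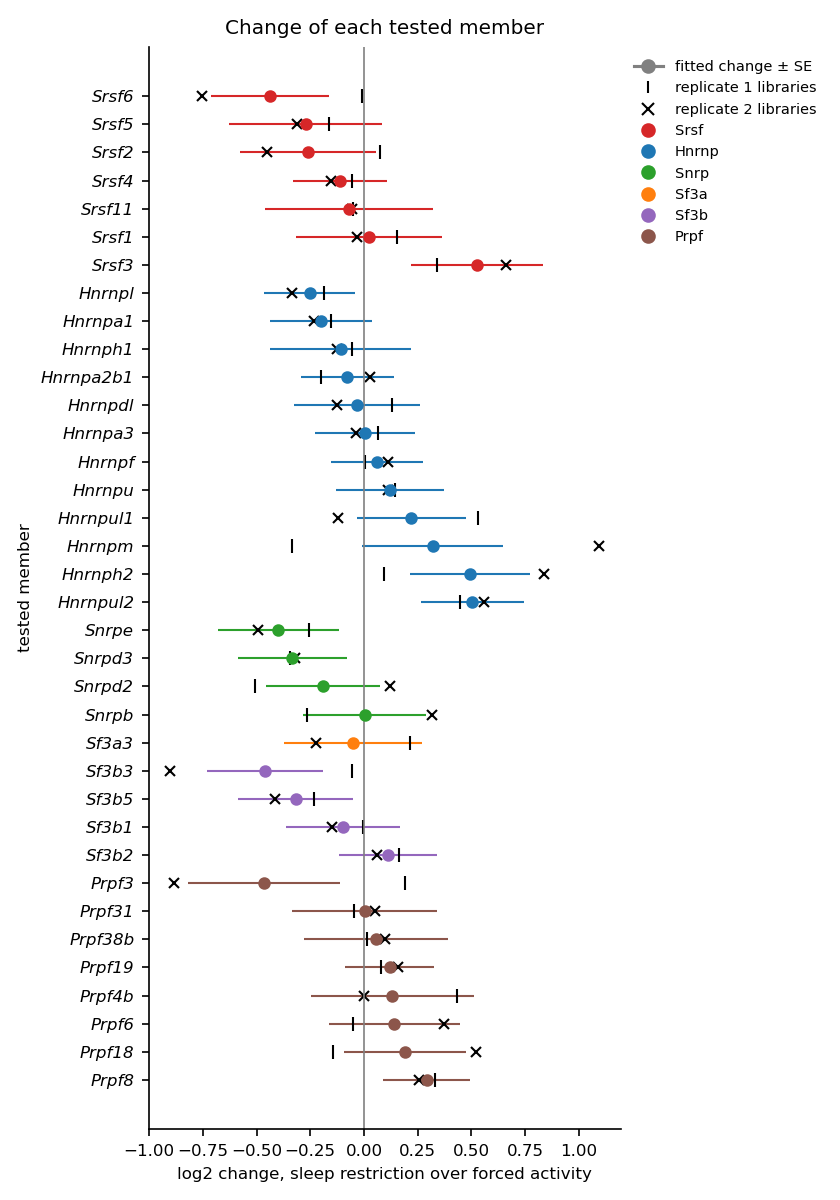
Fitted log2 change of 36 of the 37 tested members with its SE (bars), with the differences within the replicate 1 and replicate 2 libraries as black marks. Changes run from -0.47 to 0.53, and 22 of 36 members have the same sign in both replicate numbers, as 56.3% of all genes do.

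**Figure D4:**
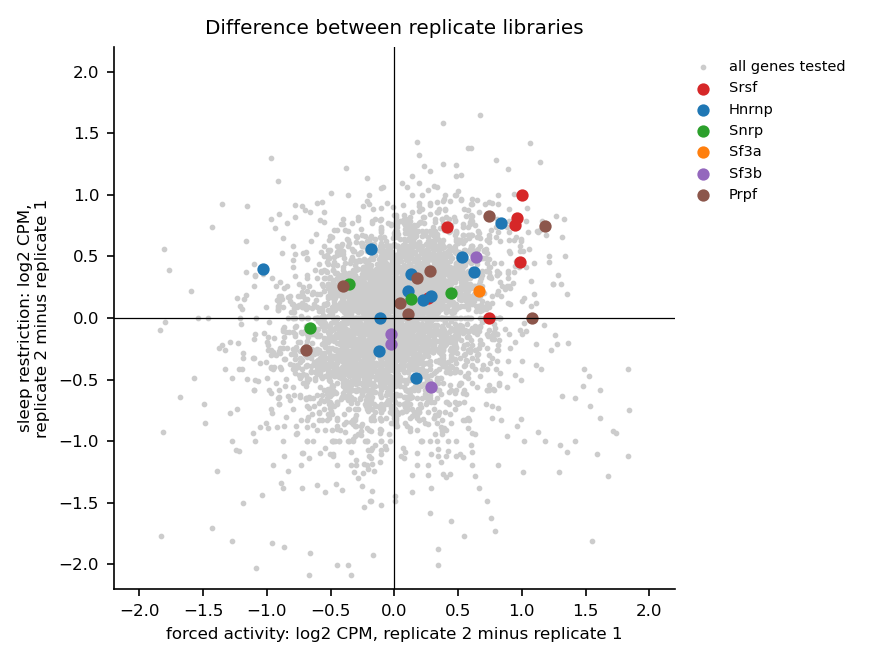
Log2 CPM of replicate 2 minus replicate 1 within sleep restriction against the same difference within forced activity, for all tested genes (grey, 14 of them outside the axes) and the members (colours). Srsf genes lie towards the upper right, with medians of 0.94 and 0.74.

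The change between groups also ran with the length of the gene interval, as the plot of change against length shows. Across genes, Spearman's rho between interval length and log2 change was 0.265 over the 4986 genes tested and 0.382 over the 37 members. The genes share 4 libraries and are not independent replicates. Within replicate 1 and replicate 2, rho was 0.274 and 0.258 over the members. The symbol groups did not follow this order throughout. The median interval was 5.52 kb for tested Snrp genes (3 of 4 changes negative), 6.05 kb for Srsf (5 of 7 negative), 10.2 kb for Hnrnp (5 of 12 negative), 24.5 kb for Prpf (1 of 9 negative) and 28.7 kb for Sf3b, the longest, where 3 of 4 changes were negative. What part length has in these changes was not tested. The replicate difference had a rho of -0.212 with length over the members and 0.0570 over all genes.

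**Figure D5:**
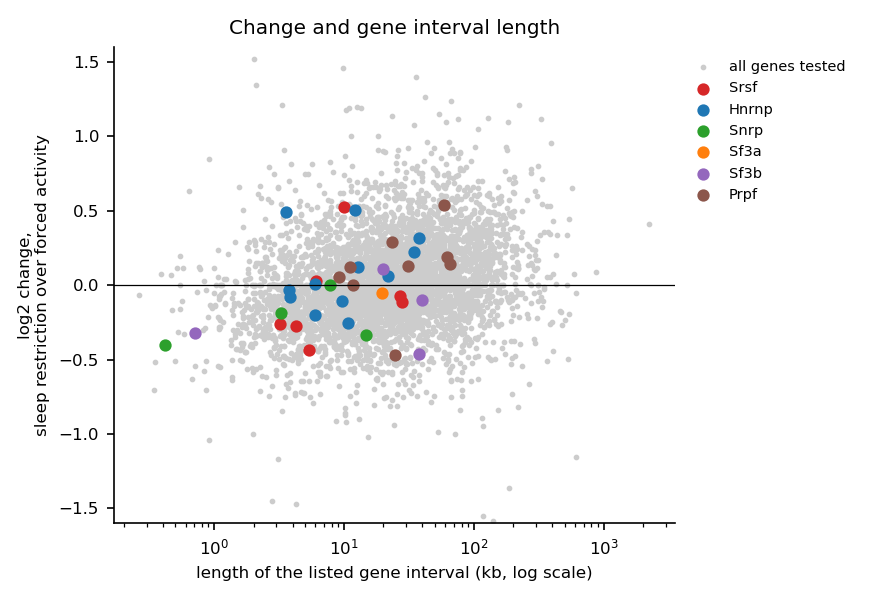
Log2 change of sleep restriction over forced activity against the length of the listed gene interval (kb, log scale), for all tested genes (grey, 4 of them outside the axes) and the members (colours). Snrp genes, with a median of 5.52 kb, lie mostly below 0 and Prpf genes, with 24.5 kb, mostly above it, while 3 of 4 Sf3b genes lie below 0 with a median of 28.7 kb.

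The remaining 28 members lay under the count filter, with at most 17 counts in a library. Of these, 3 rows were at 0 in every library, namely both rows of Hnrnpab and 1 of Hnrnpa3, while 25 had a count in at least 1 library. How reads shared by rows of the same symbol were counted is not given, so these values do not show that Hnrnpab is silent. Snrpn, which encodes a close relative of Snrpb, had 0.1 counts in sleep restriction 1 and 0 in the other libraries. Counts of Sf3b4, a subunit of the branch point complex, were 4.5 and 4.9 in the forced activity libraries and 9.1 and 10 in those of sleep restriction. Snrpb2, part of the particle that recognises the branch point, had 4.7 and 7.6 counts, then 8.3 and 17. Prpf39 had 7.1 and 15.3 counts, then 4.3 and 8. Fitted without a filter, Sf3b4 had a log2 change of 0.81 (SE 0.33), Snrpb2 of 0.75 (SE 0.35) and Prpf39 of -0.72 (SE 0.35), each with an adjusted p of 0.995 in edgeR. Groups did not overlap for Sf3b4 and Snrpb2. Without a filter, this held for 9 of 60 members in the higher and 7 in the lower direction. Over all genes tested with the filter the share was 32.5%. All 3 were picked with their values known.

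No gene of the other RNA-processing lists was called, and none had an unadjusted p under 0.05 in edgeR. Among 31 tested of 53 rows of the spliceosome component list, 18 changes were above 0 and 13 below, and their median was 0.11. Ddx39b, a helicase of assembly and export, measured lower under sleep restriction, with a log2 change of -0.50 that was -0.14 without forced activity 2, and was -0.18 within replicate 1 and -0.75 within replicate 2. Ddx42, a helicase that binds the branch point complex, had 0.54, or 0.31 without sleep restriction 2. Among 35 tested of 59 rows of the splicing regulator list, 19 were positive and 16 negative, with a median of 0.04. Arglu1 and Celf1, both regulators of alternative exons, had log2 changes of 0.59 (SE 0.28) and 0.55 (SE 0.27). That of Arglu1 was 0.36 without sleep restriction 2. Counts were 12.3 and 11.9, then 15.5 and 22 for Arglu1, and 10.5 and 12.4, then 16 and 18 for Celf1. Among 15 tested of 27 rows of the exon junction, export and decay list, 11 were positive and 4 negative, with a median of 0.09. Thoc5, an export factor, had 0.72, or 0.43 without forced activity 2. Each of these genes had an adjusted p of 0.999 in edgeR. Both replicate 2 libraries exceeded both replicate 1 libraries for 10 of the spliceosome components (32.3%), 18 of the regulators (51.4%) and 7 of the last list (46.7%), against 21.8% of all genes tested. The regulators include the SR kinase Clk1, with 46.5 and 72.1 counts in the forced activity libraries and 39.5 and 52 in those of sleep restriction, and the nuclear speckle proteins Pnn, at 20.1 and 49.8, then 18.8 and 32 counts, and Pnisr, at 19.5 and 51, then 23.6 and 43 counts. The last 3 genes were picked with their values known.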

How the data were processed

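Messenger RNA from liver was sequenced in 4 libraries, and the authors deposited estimated counts per Ensembl gene with symbols and intervals. STAR 2.4.1d, CASAVA and the build rn6 are named, without a role, per the submitters' processing notes. How reads were assigned to genes is not given. The steps of 0.1 and near-equal totals read as counts averaged over repeated random draws of reads. Words in the table's name point the same way and mark sense-strand counts, but no label describes this. Such averaging lowers counting noise in the drawn libraries, which the test does not model.

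Values were rounded and tested over the whole table with edgeR 4.0.16 (R 4.3.3) after TMM scaling (factors 0.972 to 1.04), filterByExpr with a minimum count of 10, robust quasi-likelihood and Benjamini-Hochberg adjustment over 4986 genes. CPM come from unrounded values. Log2 changes are shrunken by a prior count of 2, their SE is the change over the square root of F, and within-replicate differences are of log2 CPM with the same prior count. DESeq2 1.42.0, limma 3.58.1 and other settings were alternatives. Members and lists were chosen with earlier results of these data known. The genes named are the 3 most abundant and the 3 with the smallest p per symbol group (Sf3a and Sf3b together), and 2 per other list. Some genes that this rule gives are not reported here. Same-numbered libraries are not said to be paired. Promoter sequences are from RefSeq (GRCr8).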

Additional observations from a re-analysis of the deposited data

How the results depend on the processing

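No member was called under any of 14 alternatives, some of which left a group with 1 library. The count of called genes over the whole table was 1, and it was 2 with the DESeq2 test, 0 without robust estimation (180 at an unadjusted p under 0.05), 5 without a filter, and 0 with each library left out. The numbers do not pair the libraries by any label (correlation of deviations 0.207). A fit with the replicate block called 5 genes and no member, with the smallest adjusted p of a member at 0.806 (edgeR). The median over all members was -0.0172 with the DESeq2 test, -0.0180 without a filter, -0.0222 with a filter at 5 CPM in 2 libraries and -0.0222 with unrounded values. The Hnrnp median was -0.0154 without a filter and -0.0201 with the 5 CPM filter, where more members are tested, and the Prpf median was 0.21 with limma-voom. Without a filter and with the 5 CPM filter, the medians were -0.0215 and 0.0117 for spliceosome components and 0.19 and 0.19 for the exon junction, export and decay list.

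Leaving out 1 library at a time moved the medians from -0.20 to 0.19 for all members, -0.45 to 0.30 for Srsf, -0.12 to 0.16 for Hnrnp, -0.38 to 0.18 for Snrp, -0.33 to 0.33 for Sf3a, -0.34 to -0.11 for Sf3b, -0.0793 to 0.24 for Prpf, -0.0618 to 0.11 for spliceosome components, -0.0772 to 0.21 for splicing regulators and 0.0714 to 0.29 for the exon junction list. These fits take the spread from the group that still has 2 libraries. Of 29 genes given by the naming rule, 20 kept their sign in every alternative. Snrpb was -0.0054 with DESeq2 size factors, -0.0138 with upper-quartile factors, -0.0172 with the DESeq2 test, -0.0219 without a filter, -0.0222 with unrounded values, -0.0253 with the 5 CPM filter and -0.0042 with the replicate block. With a library left out it ran from -0.31 to 0.36, Srsf1 from -0.41 to 0.58, Srsf2 from -0.66 to 0.31, Srsf4 from -0.23 to 0.0222, Hnrnpu from -0.16 to 0.41, Hnrnpa2b1 from -0.28 to 0.0850, Sf3b1 from -0.38 to 0.26, Prpf4b from -0.32 to 0.85 and Prpf3 from -0.89 to 0.19. The cause was not tested. Member counts were at most 118 in a library, with 2 libraries per group. What size of change could be detected is not given here, so the lack of a call does not show that a member is unchanged.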
